A study of Sus scrofa with 16 samples.

Results

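The insulin-like growth factor (IGF) axis was followed through the differentiation of pig embryonic stem cells (pESCs) into midbrain dopaminergic (mDA) neurons, in bulk RNA-seq. It was taken as the 10 rows of the deposited gene table whose symbol was IGF2, IGF1, IGF1R, IGFBP2, IGFBP3, IGFBP4, IGFBP5, IGFBP7, IGF2BP1 or IGF2BP3. These members were set by name, with earlier results of these data known, so that counts of members called are descriptions. All 10 were present among 28232 genes and all 10 passed the filter on low counts. IGF1 was the single member at 0 counts in any library.

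The 16 libraries formed 8 groups of 2. PA cells came from line PA_3_pESC_FIW, made from blastocysts that arose by parthenogenetic activation, so that both copies of the genome are maternal. IVF cells came from line IVF_1_pESC_FIW, made from in vitro fertilised blastocysts with a maternal and a paternal copy. Both were sampled at day 0, before differentiation, and at days 16, 28 and 45. Both lines had been kept on mouse embryonic fibroblast feeders in a medium with FGF2, IWR-1 and WH-4-023, and were then seeded on Matrigel. They received SB431542, Noggin, SHH-C24II and CHIR99021, then FGF8, and later BDNF and ascorbic acid. From day 16 the cells grew on poly-L-ornithine, laminin and fibronectin with BDNF, GDNF, ascorbic acid, db-cAMP and DAPT. With 1 line per embryo origin, origin and line cannot be told apart. The 2 libraries of a group are called biological duplicates, but whether they were separate cultures is not stated, so that p-values measure the spread between these libraries, which may be technical.

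IGF1 and IGF2 are secreted growth factors that signal through the receptor tyrosine kinase IGF1R, while IGF2R takes up IGF2 and sends it to the lysosome. IGF binding proteins (IGFBPs) hold the ligands outside the cell and are cut by proteases that release them. IGF2BP1 and IGF2BP3 are RNA-binding proteins of embryonic tissue, named for their binding to IGF2 mRNA. IGF2 is imprinted and is read from the paternal copy in most mammalian tissues, whereas in mouse and human the choroid plexus and leptomeninges read both copies. In the brain, IGF signalling is known for its part in progenitor growth and neuron survival. The N2 and B27 supplements used in such media contain insulin.

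Libraries held 39247693 to 52165867 counts over 17727 to 19702 genes. Mitochondrial genes took 3.58 to 8.28% of counts, the most at day 45, where the shares were 6.15 to 8.28%. Replicate libraries correlated at 0.983 to 0.998 (Pearson r of log2 values across genes), lowest in PA cells at day 45. Levels of 1 gene are given as counts scaled to library size with TMM factors (CPM), which compare it between libraries. Levels of different genes are compared as TPM, which also account for transcript length. Pluripotency markers summed to 1650.3 to 1722 CPM in PA cells and 1413 to 1444 CPM in IVF cells at day 0. Neuron markers at day 28 summed to 5723 to 5808 CPM in PA cells and 2770.1 to 3787 CPM in IVF cells. In bulk RNA, fewer cells of a type and less RNA per cell cannot be told apart, which holds for every value that follows. A gene was called changed, and only then written of as risen or fallen, at an adjusted p below 0.05 over all 18528 tested genes with at least a 2-fold difference. Errors on log2 fold changes are standard errors, and PA versus IVF values are positive where PA cells were higher.

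Between the lines, 1 of 10 members was called at day 0, against 6.61% of all genes tested (3.96% rose and 2.64% fell). At day 16 the count was 0 of 10, against 9.08% of all genes (3.5% rose and 5.59% fell), although 2 members had an unadjusted p below 0.05 and DESeq2 called 1, IGF1. At day 28 it was 4 of 10, 2 up and 2 down, against 17.1% (10.3% rose and 6.75% fell). At day 45 it was 3 of 10, 2 up and 1 down, against 13.9% (8.32% rose and 5.62% fell). For the mean of days 16, 28 and 45 it was 2 of 10, IGF1 and IGFBP4, which both rose, against 8.5% (4.8% rose and 3.7% fell). The median log2 fold change of the 10 members was 0.16, -0.21, -0.26 and -0.23 at days 0, 16, 28 and 45, while that of all genes lay between 0.00 and 0.03. Members called between the lines were a ligand, IGF1, and the binding proteins IGFBP2, IGFBP3, IGFBP4 and IGFBP5, while IGF2, IGF1R, IGFBP7, IGF2BP1 and IGF2BP3 passed on no day.

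**Figure D1:**
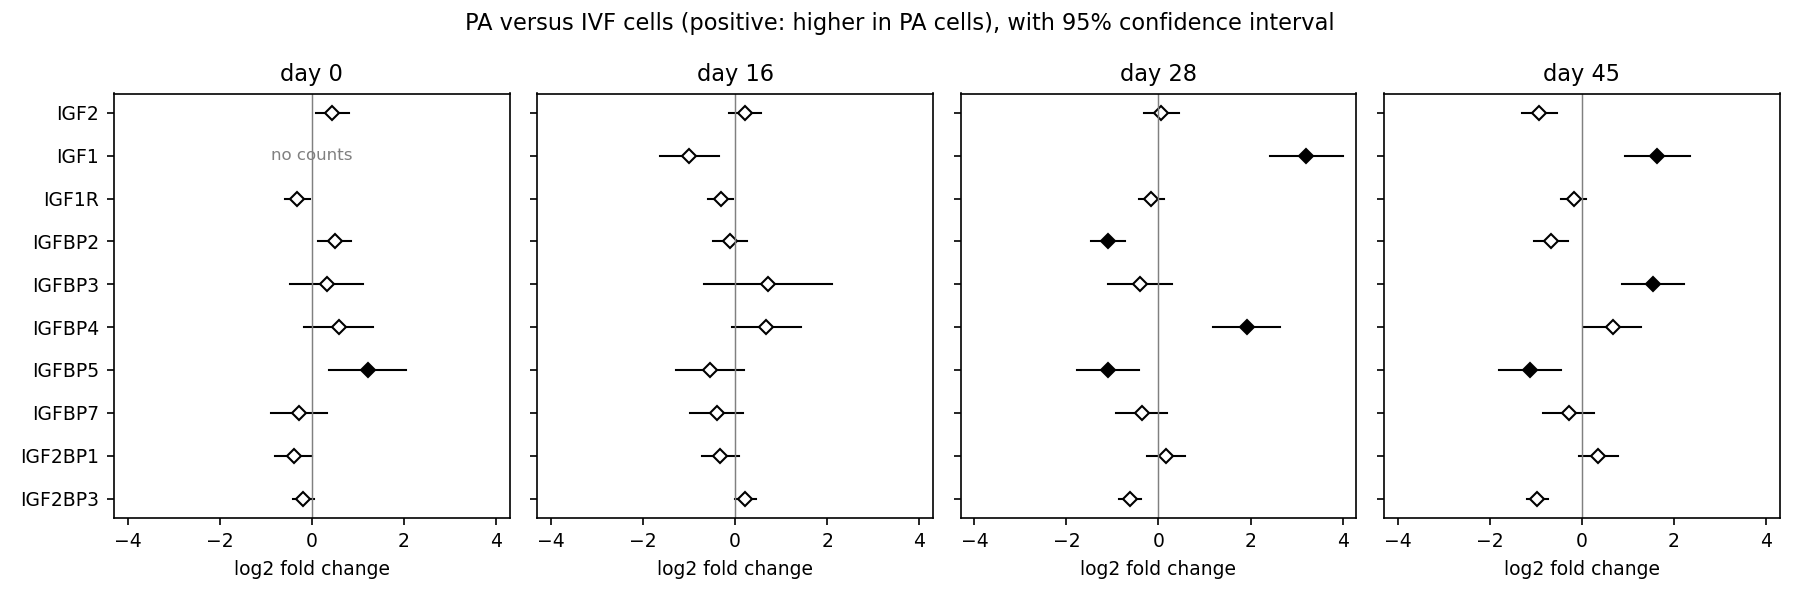
Log2 fold change of each of the 10 members in PA versus IVF cells (x axis) at days 0, 16, 28 and 45, with 95% confidence intervals. Filled diamonds are called differences, and IGF1 had no counts at day 0. IGF1 at day 28 lies farthest to the right, while IGFBP5 lies right of 0 at day 0 and left of it at days 28 and 45.

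IGF2 was expressed in PA cells, which carry no paternal genome, with group means in CPM within 2-fold of IVF cells on all 4 days. It was measured at 10.2 and 10.4 CPM in the PA libraries and 7.94 and 7.13 CPM in the IVF libraries at day 0. At day 16 it was at 20.4 and 19.4 CPM in PA cells and 18.3 and 16.1 CPM in IVF cells, and at day 28 at 2.95 and 2.38 CPM in PA cells and 2.69 and 2.41 CPM in IVF cells. At day 45 they were 2.83 and 2.31 CPM in PA cells and 4.43 and 5.32 CPM in IVF cells. By CPM, PA libraries were thus the higher at days 0 and 16, the lines overlapped at day 28, and the IVF libraries were the higher at day 45. The log2 fold changes were 0.45 ± 0.17, 0.21 ± 0.16 and 0.07 ± 0.18 at days 0, 16 and 28, with adjusted p of 0.0833, 0.426 and 0.822 and 95% intervals of 0.09 to 0.81, -0.14 to 0.55 and -0.32 to 0.46. The 95% interval at day 45 was -1.31 to -0.54, which includes differences of more than 2-fold. The log2 fold change there was -0.93 ± 0.18 with an adjusted p of 0.00112, under the 2-fold minimum and so not called. It passed that minimum without PA day 45 replicate 1 (-1.08, adjusted p = 0.000616) or IVF day 45 replicate 1 (-1.05, adjusted p = 0.00249), and its adjusted p was 0.0969 when only the libraries compared were fitted.

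In TPM the IGF2 level was low, between 1.25 and 10.2 over the 8 group means. At day 16 the lines overlapped in TPM, with 9.93 and 9.12 in the PA libraries and 11.0 and 9.45 in the IVF libraries. The group means at day 45 were 1.254 TPM in PA cells and 2.510 TPM in IVF cells. IGF2 lies on chromosome 2, 1469183 to 1496417, minus strand of Sscrofa11.1, with no annotated gene on the opposite strand over it. The sum of counts does not show which parental copy an IGF2 read came from, since no allele was measured.

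Markers of the choroid plexus stood apart between the lines at days 0, 16 and 28, and overlapped at day 45. The 6 of 7 listed that were measured summed to 21.4 to 22.7 CPM in PA cells and 3.97 to 4.31 CPM in IVF cells at day 0, and to 47.2 to 50.8 CPM in PA cells and 23.9 to 30.9 CPM in IVF cells at day 16. They summed to 8.18 to 8.69 CPM in PA cells and 15.1 to 18.0 CPM in IVF cells at day 28, and to 14.2 to 23.8 CPM in PA cells and 18.6 to 18.7 CPM in IVF cells at day 45. The sum was thus higher in PA cells at days 0 and 16, and the highest at day 16 in both lines. CLIC6, an intracellular chloride channel protein, made up most of it in PA cells at days 0 and 16 (20.4 and 34.5 CPM). TTR, which encodes transthyretin and is listed here for choroid plexus and for endoderm and liver, had 0 counts in both lines at day 0. At day 16 TTR had 0 and 3 counts in the PA libraries and 0 in both IVF libraries. It was at 0 counts in both PA libraries at day 28 as well. KCNJ13 and PRLR were at 0 counts in both lines at day 0. By day 16 PRLR averaged 10.7 CPM in PA cells and 8.43 CPM in IVF cells, and KCNJ13 averaged 0.273 CPM in PA cells and 1.93 CPM in IVF cells. Leptomeningeal and fibroblast markers summed to 388 to 405 CPM in PA cells and 329 to 359 CPM in IVF cells at day 0. At day 16 they summed to 322 to 386 CPM in PA cells and 279 to 291 CPM in IVF cells. Their sum was the higher in IVF cells at day 28, and the lines overlapped at day 45. The part of choroid plexus or leptomeningeal cells in the IGF2 values was not tested.

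IGF2 had its highest level at day 16 in both lines, and at the last step the values of the lines differed by just under 2-fold. IGF2 rose by day 16 in IVF cells (1.19 ± 0.17, adjusted p = 2.57e-05). In PA cells the value was 0.95 ± 0.16 with an adjusted p of 0.000183, just under 2-fold, and 1.05 with scaling to total counts, where it was called. Against day 16, IGF2 fell at day 28 in PA cells (-2.89 ± 0.18, adjusted p = 1.13e-08) and in IVF cells (-2.76 ± 0.18, adjusted p = 4.9e-08). At day 45 versus day 28 the values were -0.06 ± 0.18 in PA cells and 0.93 ± 0.18 in IVF cells, neither called. The difference between these steps was -0.99 ± 0.25 (adjusted p = 0.00915), short of the 2-fold minimum, and it passed with DESeq2 and with RLE size factors.

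Other imprinted genes that are read from the paternal copy in other mammals mostly stood far lower in PA cells, whereas the group means of IGF2 in CPM stayed within 2-fold. Of 13 listed, SNRPN was not analysed here and 12 were tested. 11, 9, 9 and 11 of the 12 fell in PA versus IVF cells at days 0, 16, 28 and 45, while 0, 1, 1 and 1 rose. Genes at 0 counts in a group were set to their counting bound, and those with up to 3 counts in it to the ratio of mean CPM. The list's median log2 fold change was then -7.59, -5.56, -5.47 and -5.70 on these days. This list was assembled with results of these libraries known, so that its direction is no independent evidence.

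NDN, which encodes necdin, had 0 counts in all 8 PA libraries. It averaged 33.3, 49.0, 73.9 and 126 CPM in IVF cells at days 0, 16, 28 and 45. NNAT, a small membrane protein of neural tissue, averaged 0.103 CPM in PA cells and 761 CPM in IVF cells at day 45, and PEG10, a retrotransposon-derived gene, averaged 0.534 CPM in PA cells and 3811 CPM in IVF cells. PEG3, a zinc finger protein, had 0 counts in PA cells at day 0 and averaged 5.06, 31.8 and 92.2 CPM in them at days 16, 28 and 45, against 448, 1589 and 1479 CPM in IVF cells. MAGEL2 was at 0 counts in PA cells at day 0, against 101 CPM in IVF cells, but averaged 113 CPM in PA cells and 125 CPM in IVF cells at day 16. The imprinted genes thus differed among themselves in how far the PA level stayed below that of IVF cells. ZIM2 went the other way at day 16, with 4.37 CPM in PA cells and 0 in IVF cells.

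**Figure D2:**
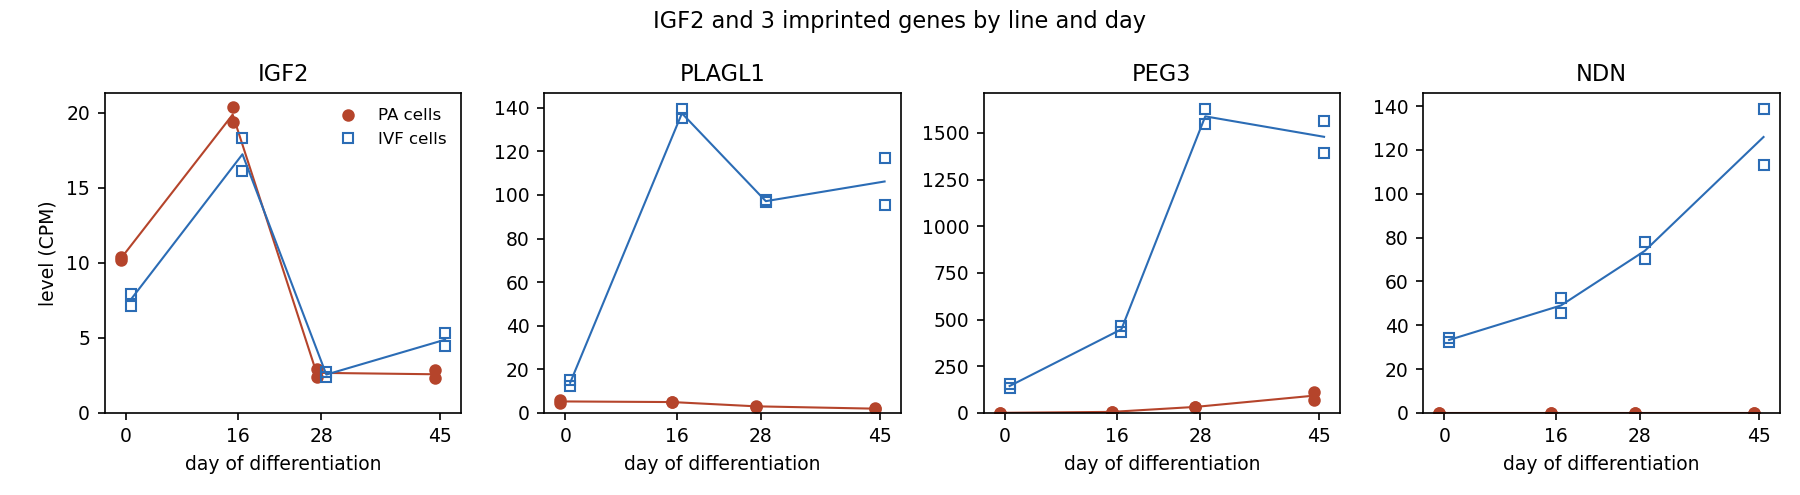
Levels in CPM (y axis, linear, starting at 0) of IGF2, PLAGL1, PEG3 and NDN by day of differentiation (x axis), with filled circles for PA libraries, open squares for IVF libraries and lines through group means. IGF2 is highest at day 16 in both lines and is at 2.83 and 2.31 CPM in PA cells and 4.43 and 5.32 CPM in IVF cells at day 45, while NDN has 0 counts in all 8 PA libraries.

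Among regulators of IGF2 transcription, 7 of 9 listed were tested and PLAGL1 fell in PA cells on all 4 days. PLAGL1 is a zinc finger transcription factor, itself imprinted and also in the imprinted list, that activates IGF2 in mouse. It averaged 5.24, 4.94, 2.98 and 1.91 CPM in PA cells at days 0, 16, 28 and 45, against 13.8, 137, 97.1 and 106 CPM in IVF cells. The log2 fold changes were -1.40, -4.80, -5.02 and -5.79. At day 16 PLAGL1 differed by -4.80 ± 0.17 on the log2 scale, beside 0.21 ± 0.16 for IGF2. The part of PLAGL1 in the IGF2 values was not tested. The related factor PLAG1 fell in PA cells at days 28 and 45 (-1.26 and -1.18). ZFP57, which guards imprinting marks in mouse and human, rose in PA cells at day 0 (2.14 ± 0.26, adjusted p = 9.1e-05). The list's median was -0.14, 0.11, 0.06 and -0.15 at days 0, 16, 28 and 45.

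Of the genes beside IGF2 on chromosome 2, at most 2 were called between the lines on any day. The 1, 1, 2 and 1 calls among the 13 tested at days 0, 16, 28 and 45 were 7.69%, 7.69%, 15.4% and 7.69%, against 6.61%, 9.08%, 17.1% and 13.9% of all genes. INS lies 424 bases from IGF2 and TH, which makes the dopamine precursor L-DOPA, 1575 bases further on. TH averaged 15.7, 56.3 and 42.7 CPM in PA cells at days 16, 28 and 45, against 4.40, 24.6 and 68.7 CPM in IVF cells, and had 0 counts in both at day 0. TH rose in PA versus IVF cells at day 16 (1.83) and day 28 (1.20) and was not called at day 45 (-0.68 ± 0.14, adjusted p = 0.00197). INS averaged below 1 CPM in every group. Of the 17 neighbours listed, besides TH the calls between the lines were KCNQ1 at day 0 (1.13), PHLDA2 at day 28 (1.23) and CDKN1C at day 45 (-2.08). CDKN1C, a cell cycle inhibitor read from the maternal copy in mouse and human, averaged 9.04 CPM in PA cells and 38.1 CPM in IVF cells at day 45. The tested neighbours with no call between the lines on any day were INS, ASCL2, MRPL23, LSP1, CTSD, TSPAN32, CD81, SLC22A18 and NAP1L4, while TNNT3, TNNI2 and SYT8 did not pass the filter on low counts. H19 was not analysed here.

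IGF1, the second ligand, had the largest log2 fold change between the lines of the 10 members. It was at 0 counts in all 4 day 0 libraries and appeared by day 16 in both lines. At day 16 it stood at 9.40 and 8.50 CPM in PA cells and 19.7 and 15.8 CPM in IVF cells. By day 28 it stood at 4.76 and 6.30 CPM in PA cells and 0.475 and 0.713 CPM in IVF cells, and at day 45 at 8.36 and 4.08 CPM in PA cells and 1.85 and 2.12 CPM in IVF cells. IVF libraries were therefore the higher at day 16 and PA libraries the higher at days 28 and 45, with no overlap between lines on any of the 3 days. IGF1 rose in PA versus IVF cells at day 28 (3.21 ± 0.36, adjusted p = 2.78e-05) and day 45 (1.64 ± 0.32, adjusted p = 0.00183). Without PA day 45 replicate 1 the day 45 value was 1.03, adjusted p = 0.00602. At day 16 the difference was -0.99 ± 0.30, adjusted p = 0.0346, just short of 2-fold, and it was called with DESeq2, with RLE size factors, with total counts and with only the libraries compared.

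Between days, IGF1 was at least 131-fold higher at day 16 than day 0 in PA cells and at least 218-fold higher in IVF cells, taking 3 counts in 1 library as the floor. It fell at day 28 versus day 16 in IVF cells (-4.90 ± 0.37, adjusted p = 6.34e-07), whereas the PA value was -0.70 ± 0.30, adjusted p = 0.0646 and was not called. This step differed between the lines by 4.20 ± 0.47 (adjusted p = 5.14e-05). At day 45 versus day 28 IGF1 rose in IVF cells (1.74 ± 0.37, adjusted p = 0.00274) and was not called in PA cells (0.17 ± 0.30, adjusted p = 0.691), a difference of -1.57 ± 0.48 between the steps (adjusted p = 0.0271). The call on that last difference was lost without IVF day 45 replicate 2 (-1.49, adjusted p = 0.0806), IVF day 28 replicate 1 (-1.31, adjusted p = 0.121) or PA day 28 replicate 2 (-1.36, adjusted p = 0.0958), and with only the libraries compared (-1.59, adjusted p = 0.0683). IGF1 lies on chromosome 5, 81762027 to 81909253, plus strand, and the long noncoding RNAs LOC110260785 and LOC110260784 lie on the opposite strand within it. Whether counting used strand is not given in the sources used here, so that reads of IGF1 and of these genes cannot be told apart.

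Neuron markers stood apart between the lines at days 16 and 28 and overlapped at day 45, where IGF1 was also called. The 8 of 9 listed neuron markers that were measured summed to 1687 to 1701 CPM in PA cells and 3865 to 3881 CPM in IVF cells at day 16, and to 5723 to 5808 CPM in PA cells and 2770.1 to 3787 CPM in IVF cells at day 28, none of them at 0 counts at day 28. At day 45 they summed to 2085 to 2375 CPM in PA cells and 1518 to 2108 CPM in IVF cells. Their part in the IGF1 difference was not tested.

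IGF1R, the shared receptor, was high in every library and was called in no comparison. At day 0 it stood at 219 and 215 CPM in PA cells and 267 and 274 CPM in IVF cells, and at day 16 at 264 and 239.8 CPM in PA cells and 332 and 294 CPM in IVF cells. At day 28 it was at 159 and 151 CPM in PA cells and 176 and 169 CPM in IVF cells, and at day 45 at 135 and 126 CPM in PA cells and 123 and 171 CPM in IVF cells. The PA libraries were the lower at days 0, 16 and 28, and the lines overlapped at day 45. The 95% intervals of the log2 fold change between lines were -0.59 to -0.04, -0.59 to -0.04, -0.43 to 0.11 and -0.45 to 0.10 at days 0, 16, 28 and 45, so that a 2-fold difference lay outside each. At day 28 versus day 16 the values were -0.70 ± 0.13, adjusted p = 0.000261 in PA cells and -0.86 ± 0.13, adjusted p = 7.9e-05 in IVF cells, below 2-fold in both. IGF1R lies on chromosome 1, 137383623 to 137691038, minus strand, and its end overlaps PGPEP1L on the opposite strand. As for IGF1, reads of both genes in the overlap cannot be told apart.

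The other receptors of the axis were not called between the lines, except for INSRR, an orphan relative of the insulin receptor, which averaged under 1 CPM in every group after day 0. IGF2R averaged 242 CPM in PA cells and 199 CPM in IVF cells at day 45 (0.28 ± 0.12, adjusted p = 0.0683). INSR, the insulin receptor, differed by -0.81 ± 0.13, adjusted p = 0.000407 at day 45, below 2-fold. Its step at day 45 versus day 28 differed between the lines by -1.21 ± 0.19, adjusted p = 0.000382. Of the 4 listed ligands and receptors that were not members, 0, 1, 0 and 1 rose and 0, 0, 0 and 0 fell in PA versus IVF cells at days 0, 16, 28 and 45, with medians of -0.02, 0.10, 0.77 and -0.26.

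**Figure D3:**
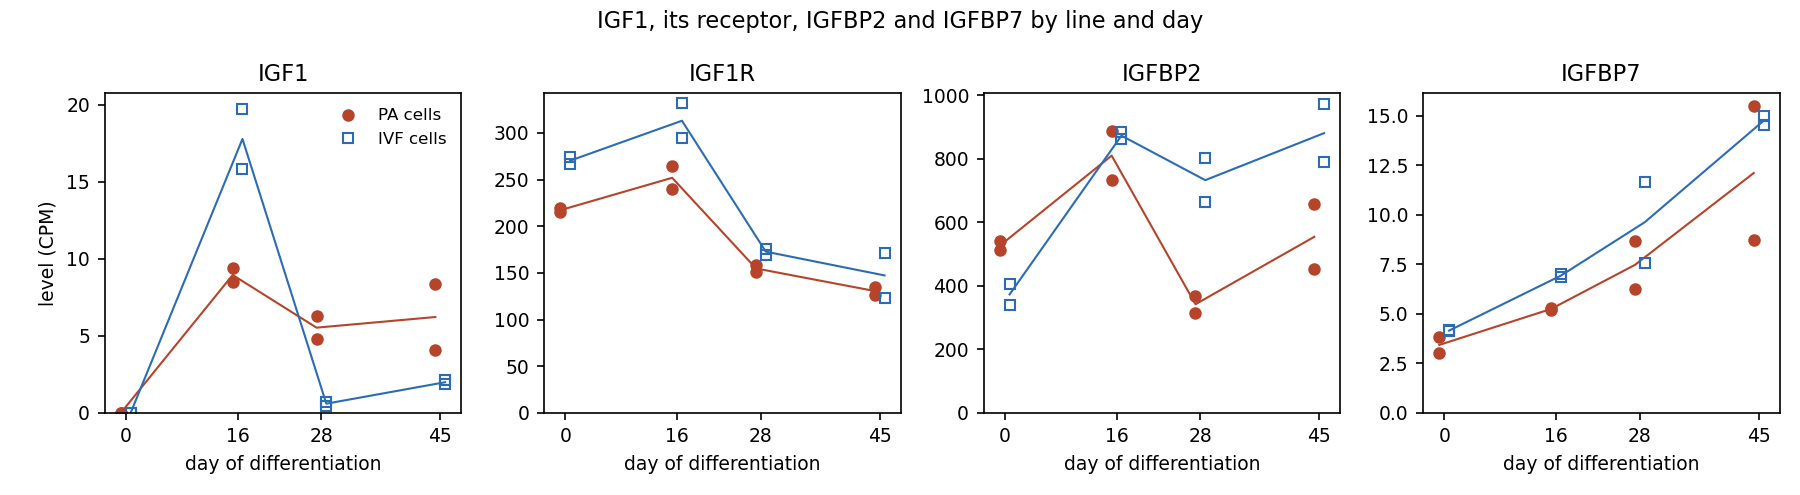
Levels in CPM (y axis, linear) of IGF1, IGF1R, IGFBP2 and IGFBP7 by day of differentiation (x axis), with filled circles for PA libraries, open squares for IVF libraries and lines through group means. IGF1 is highest in IVF cells at day 16 and higher in PA than IVF cells at days 28 and 45.

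IGFBP2, a binding protein abundant in developing brain, was by far the most abundant of the axis. It had the highest TPM of the 10 members in all 8 groups, with group means between 526.8 and 1452 TPM. It made up 64.1 to 97.6% of the summed TPM of the 5 member IGFBPs in a library, a sum without IGFBP1 and IGFBP6. At day 0 it stood at 511 and 541 CPM in PA cells and 405 and 340.1 CPM in IVF cells, and at day 16 at 886 and 732 CPM in PA cells and 860.3 and 884 CPM in IVF cells. By day 28 it stood at 369 and 314 CPM in PA cells and 801 and 663 CPM in IVF cells, and at day 45 at 656 and 451 CPM in PA cells and 972 and 788 CPM in IVF cells. PA libraries were above IVF libraries at day 0 and below them at days 28 and 45. IGFBP2 fell in PA versus IVF cells at day 28 (-1.10 ± 0.17, adjusted p = 0.000183). Without IVF day 28 replicate 1 or PA day 28 replicate 2 the value was just under 2-fold (-0.96, adjusted p = 0.00392, and -0.99, adjusted p = 0.00551). At days 0 and 45 the values were 0.50 ± 0.17, adjusted p = 0.0625 and -0.67 ± 0.17, adjusted p = 0.00716, neither called.

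IGFBP2 rose by day 16 in IVF cells (1.23 ± 0.17, adjusted p = 2.72e-05) and was below 2-fold in PA cells (0.62 ± 0.17, adjusted p = 0.0061). It fell at day 28 versus day 16 in PA cells (-1.24 ± 0.17, adjusted p = 2.34e-05) and not in IVF cells (-0.25 ± 0.17, adjusted p = 0.246), and the steps differed by -0.99 ± 0.24, adjusted p = 0.00724, just under 2-fold. IGFBP2 lies on chromosome 15, 118822092 to 118850985, plus strand, and IGFBP5 lies 10830 bases beyond its 3′ end on the other strand.

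IGFBP5, the neighbour of IGFBP2 and a binding protein found in extracellular matrix, differed between the lines in both directions. Its levels were 5.26 and 4.99 CPM in PA cells and 2.80 and 1.61 CPM in IVF cells at day 0, and 7.52 and 3.36 CPM in PA cells and 8.67 and 7.09 CPM in IVF cells at day 16. They were 45.0 and 37.2 CPM in PA cells and 95.2 and 80.6 CPM in IVF cells at day 28, and 46.8 and 31.9 CPM in PA cells and 63.5 and 109 CPM in IVF cells at day 45. PA libraries were above IVF libraries at day 0, overlapped them at day 16 and were below them at days 28 and 45. IGFBP5 rose in PA versus IVF cells at day 0 (1.22 ± 0.39, adjusted p = 0.0468) and fell at day 28 (-1.10 ± 0.31, adjusted p = 0.0124) and day 45 (-1.13 ± 0.31, adjusted p = 0.0111). The day 0 call was lost with RLE size factors (1.20, adjusted p = 0.0518) and without any library of day 0 or day 28, IVF day 16 replicate 1 or IVF day 16 replicate 2, with values between 0.87 and 1.67. At day 28 it was lost without IVF day 28 replicate 1 (-0.97, adjusted p = 0.0825) or PA day 28 replicate 2 (-0.96, adjusted p = 0.104). At day 45 it was lost without IVF day 45 replicate 2 (-0.69, adjusted p = 0.15) or PA day 45 replicate 2 (-0.88, adjusted p = 0.053).

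Over the days, IGFBP5 rose at day 28 versus day 16 in PA cells (2.92 ± 0.35, adjusted p = 4.93e-06) and IVF cells (3.48 ± 0.35, adjusted p = 2.04e-06). By day 16 it had risen against day 0 in IVF cells (1.84 ± 0.38, adjusted p = 0.000802) and not in PA cells (0.08 ± 0.35, adjusted p = 0.869), and these steps differed by -1.76 ± 0.52, adjusted p = 0.0451. That difference lost its call in 10 of the 16 fits that left out 1 library, the exceptions being IVF day 0 replicate 1, PA day 16 replicate 1 and the 4 libraries of day 45. IGFBP5 lies on chromosome 15, 118861816 to 118877787, minus strand.

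IGFBP3, the main carrier of IGFs in blood, was lowest at day 16 in both lines. At day 0 it stood at 2.03 and 2.03 CPM in PA cells and 1.74 and 1.51 CPM in IVF cells, and at day 16 at 0.250 and 0.313 CPM in PA cells and 0.170 and 0.170 CPM in IVF cells. At day 28 it was at 4.07 and 4.24 CPM in PA cells and 5.76 and 5.18 CPM in IVF cells, and at day 45 at 43.4 and 15.8 CPM in PA cells and 10.7 and 9.58 CPM in IVF cells. Every library of day 16 was below 0.5 CPM, and every library of day 45 was above those of the earlier days. Against day 0, IGFBP3 fell at day 16 in PA cells (-2.83 ± 0.46, adjusted p = 0.000101) and IVF cells (-3.23 ± 0.51, adjusted p = 8.12e-05). It rose at day 28 versus day 16 in PA cells (3.87 ± 0.44, adjusted p = 3.42e-06) and IVF cells (4.99 ± 0.47, adjusted p = 1.27e-06). At day 45 versus day 28 it rose further in PA cells (2.83 ± 0.34, adjusted p = 1.4e-05), while the IVF value was 0.89 ± 0.32, adjusted p = 0.0386, below 2-fold.

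The lines differed in IGFBP3 at day 45, where it rose in PA versus IVF cells (1.55 ± 0.32, adjusted p = 0.00175). The 2 PA libraries were far apart there, and without PA day 45 replicate 1 the value was 0.64, adjusted p = 0.0111, below 2-fold. The step at day 45 versus day 28 differed by 1.94 ± 0.45, adjusted p = 0.00529, and by 1.04, adjusted p = 0.00407 without that library. IGFBP3 lies on chromosome 18, 50002921 to 50009425, plus strand.

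IGFBP4, a binding protein that restrains IGF action until it is cut by PAPPA, rose late in both lines. It stood at 4.46 and 3.30 CPM in PA cells and 2.77 and 2.38 CPM in IVF cells at day 0, and at 3.41 and 3.55 CPM in PA cells and 1.85 and 2.49 CPM in IVF cells at day 16. By day 28 it stood at 7.83 and 8.04 CPM in PA cells and 2.81 and 1.39 CPM in IVF cells, and at day 45 at 128 and 66.3 CPM in PA cells and 70.6 and 51.2 CPM in IVF cells. PA libraries were above IVF libraries on the first 3 sampled days, and the lines overlapped at day 45. IGFBP4 rose in PA versus IVF cells at day 28 (1.91 ± 0.34, adjusted p = 0.000449) and was not called at day 45 (0.67 ± 0.29, adjusted p = 0.0786). Without PA day 45 replicate 2 the day 45 value was 1.07, adjusted p = 0.00273, and was called.

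IGFBP4 rose at day 28 versus day 16 in PA cells (1.19 ± 0.32, adjusted p = 0.0055) and not in IVF cells (-0.04 ± 0.36, adjusted p = 0.951), a difference of 1.23 ± 0.48, adjusted p = 0.0727 between the steps. At day 45 versus day 28 it rose in PA cells (3.61 ± 0.32, adjusted p = 1.18e-06) and IVF cells (4.85 ± 0.35, adjusted p = 5.74e-07), and these steps differed by -1.24 ± 0.44, adjusted p = 0.045. The last difference lost its call with only the libraries compared (-1.26, adjusted p = 0.107). It also lost it in 11 of the 16 fits that left out 1 library, the exceptions being IVF day 28 replicate 1, IVF day 45 replicate 2, PA day 45 replicate 1 and the 2 PA libraries of day 0. IGFBP4 lies on chromosome 12, 21966524 to 21980043, minus strand.

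IGFBP7, a matrix protein with low affinity for IGFs, was not called between the lines on any day. At day 0 it stood at 3.82 and 3.04 CPM in PA cells and 4.13 and 4.17 CPM in IVF cells, and at day 16 at 5.29 and 5.20 CPM in PA cells and 6.85 and 7.00 CPM in IVF cells. At day 28 it was at 6.24 and 8.70 CPM in PA cells and 11.7 and 7.58 CPM in IVF cells, and at day 45 at 15.5 and 8.72 CPM in PA cells and 15.0 and 14.5 CPM in IVF cells. No step between days was called in either line, the nearest being 0.74 ± 0.27, adjusted p = 0.0298 at day 16 versus day 0 in IVF cells and 0.70 ± 0.26, adjusted p = 0.0431 at day 45 versus day 28 in PA cells. The log2 fold change between lines was -0.28 ± 0.26 at day 45, with a 95% interval of -0.84 to 0.27. IGFBP7 lies on chromosome 8, 56283089 to 56357822, minus strand, and its end overlaps POLR2B on the opposite strand. As for IGF1, whether counting used strand is not given, so that reads of IGFBP7 and POLR2B in the overlap cannot be told apart.

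**Figure D4:**
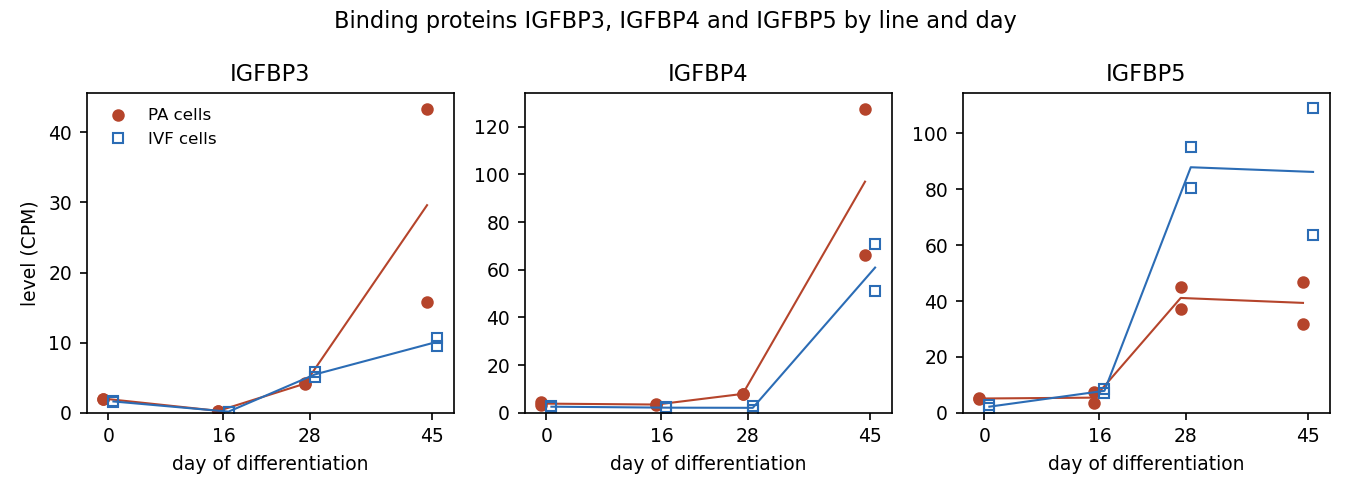
Levels in CPM (y axis, linear) of IGFBP3, IGFBP4 and IGFBP5 by day of differentiation (x axis), with filled circles for PA libraries, open squares for IVF libraries and lines through group means. IGFBP3 and IGFBP4 are highest at day 45 and IGFBP5 from day 28 on, and the 2 PA libraries of day 45 lie far apart for IGFBP3 and IGFBP4.

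Markers of vascular leptomeningeal cells and fibroblasts, which are known to express several IGFBPs, were present in these libraries. All 12 listed markers had counts at days 28 and 45. Over both lines their summed level was already 329 to 405 CPM at day 0 and was 279 to 386 CPM at day 16. It was 499 to 581 CPM in PA cells and 689 to 839 CPM in IVF cells at day 28. At day 45 it was 945 to 2245 CPM in PA cells and 1033 to 1465 CPM in IVF cells. The 7 of 8 listed astrocyte markers that were measured all had counts at day 45 and summed to 465 to 995 CPM in PA cells and 260.0 to 332 CPM in IVF cells. SPARCL1 made up most of this sum in both lines, averaging 632 CPM (SD 332) in PA cells and 193 CPM in IVF cells. The astrocyte sum at day 45, and its difference between the lines, thus mostly followed this gene. At day 16 the astrocyte markers summed to 295 to 337 CPM in PA cells and 144 to 163 CPM in IVF cells. SPARCL1 averaged only 0.554 CPM in PA cells and 1.33 CPM in IVF cells on that day. At day 28 the sums were 47.3 to 52.7 CPM in PA cells and 65.5 to 75.7 CPM in IVF cells. The 7 endothelial and pericyte markers summed to 52.5 to 68.7 CPM in PA cells and 17.7 to 18.5 CPM in IVF cells at day 45, with CDH5 at 0 counts in both. The part of such cells in the IGFBP values was not tested.

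Proteases that cut IGFBPs, their inhibitors and other IGF-binding genes were called between the lines most often at day 28, as were all genes tested. Of 14 listed, 9 were not members and 8 of those were tested. 1, 0, 2 and 1 of the 8 rose in PA versus IVF cells at days 0, 16, 28 and 45 and 0, 0, 2 and 1 fell, with medians of 0.04, 0.11, -0.38 and -0.45, while 6.61%, 9.08%, 17.1% and 13.9% of all genes were called on these days. PAPPA, a metalloprotease that cuts IGFBP4, averaged 7.49 CPM in PA cells and 29.2 CPM in IVF cells at day 28 and fell in PA cells (-1.96 ± 0.15, adjusted p = 5.57e-07). Its step at day 28 versus day 16 differed between the lines by -2.01 ± 0.21, adjusted p = 1.21e-05. STC1 and STC2, the stanniocalcins, inhibit PAPPA. STC1 rose in PA versus IVF cells at day 28 (2.27) and day 45 (2.30), averaging 35.5 CPM in PA cells and 7.17 CPM in IVF cells at day 45, while STC2 rose at day 0 (1.55) and fell at day 28 (-1.44). PAPPA2, which cuts IGFBP3 and IGFBP5, rose in PA versus IVF cells at day 28 (1.47). HTRA1, a secreted serine protease, fell in PA versus IVF cells at day 45 (-1.14).

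Over the days, IGFBPL1 and PAPPA both rose by day 16. IGFBPL1, an IGFBP-like protein of the developing nervous system, rose against day 0 in PA cells (3.48 ± 0.24, adjusted p = 2.47e-08) and IVF cells (3.67 ± 0.25, adjusted p = 1.47e-08). PAPPA rose in PA cells (3.22 ± 0.16, adjusted p = 8.93e-10) and IVF cells (2.93 ± 0.16, adjusted p = 1.84e-09) in the same interval. HTRA1 rose at day 28 versus day 16 in PA cells (2.06) and IVF cells (3.03).

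IGF2BP1, which stabilises its target mRNAs, fell at each of the 3 steps in both lines. At day 0 it stood at 204 and 202 CPM in PA cells and 263 and 269 CPM in IVF cells, and at day 16 at 94.3 and 68.4 CPM in PA cells and 120.1 and 82.8 CPM in IVF cells. Day 28 libraries stood at 35.4 and 32.4 CPM in PA cells and 31.0 and 29.3 CPM in IVF cells, and at day 45 at 13.8 and 17.2 CPM in PA cells and 10.1 and 14.0 CPM in IVF cells. Within each line no 2 days overlapped. The steps to days 16, 28 and 45 were -1.32 ± 0.19, -1.26 ± 0.19 and -1.13 ± 0.20 in PA cells and -1.39 ± 0.19, -1.75 ± 0.19 and -1.32 ± 0.20 in IVF cells. Adjusted p-values ran up to 0.000336 in PA cells and 0.000142 in IVF cells at the last step. Without PA day 45 replicate 1 the last PA step was -0.98, adjusted p = 0.00202, just under 2-fold. The lines were not called different on any day. IGF2BP1 lies on chromosome 12, 25196955 to 25244660, plus strand.

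IGF2BP3 was not called at day 16 versus day 0 in either line and then fell. At day 0 it stood at 168 and 165 CPM in PA cells and 188 and 189.9 CPM in IVF cells, and at day 16 at 180.3 and 186 CPM in PA cells and 155 and 160.2 CPM in IVF cells. Day 28 libraries stood at 37.9 and 36.2 CPM in PA cells and 53.6 and 60.6 CPM in IVF cells, and at day 45 at 37.8 and 30.1 CPM in PA cells and 69.2 and 63.3 CPM in IVF cells. PA libraries were the lower at days 28 and 45, without overlap. IGF2BP3 fell at day 28 versus day 16 in PA cells (-2.30 ± 0.11, adjusted p = 1.95e-09) and IVF cells (-1.46 ± 0.11, adjusted p = 1.57e-07). Its difference between the lines was -0.62 ± 0.11, adjusted p = 0.000431 at day 28 and -0.96 ± 0.11, adjusted p = 2.15e-05 at day 45, both under 2-fold. At day 45 it passed that minimum without PA day 45 replicate 1 (-1.14, adjusted p = 7.12e-07) or IVF day 45 replicate 2 (-1.03, adjusted p = 0.000177). IGF2BP3 lies on chromosome 9, 92104786 to 92272264, minus strand.

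Both IGF2BP mRNAs are known targets of the let-7 microRNAs in mammals, and LIN28A and LIN28B block the maturation of let-7. No microRNA was measured here. The RefSeq annotation of Sscrofa11.1 holds 10 mature let-7 entries, of which 9 carry the seed GAGGTAG at bases 2 to 8. The 3′ UTRs of members were searched for the reverse complement CTACCTC, after the levels had been seen. The sequences below show where the match lies in the members that have one, with the seed or the match in capitals and genome letters (T in place of U).
ssc-let-7a: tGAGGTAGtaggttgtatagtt
IGF2BP1, chr12:25244586-25244614, plus strand: taatgctgtgcgcgaagtaaaCTACCTCa
IGF2BP3, chr9:92106465-92106493, minus strand: taaacgtgcatttttactcaaCTACCTCa
IGF1, chr5:81849205-81849233, plus strand: tgggggaaatatgtcatctgcCTACCTCa
IGF1R, chr1:137387607-137387635, minus strand: ttttttttcccagacatttatCTACCTCa
IGF1R, chr1:137385837-137385865, minus strand: cgaggcctctttctcagcagcCTACCTCt
IGF1R, chr1:137383783-137383811, minus strand: gagaggtttgccagagtttgtCTACCTCt
IGF2BP1, IGF2BP3 and IGF1 held 1 match each and IGF1R held 3. For each gene on an assembled chromosome, only the longest annotated 3′ UTR was searched. Of these 18167 UTRs, 8.45% held a match and 6.67% held the same letters on the other strand, GAGGTAG, which no searched member held. Long UTRs hold more, and among UTRs of similar length 9.74% held a match for IGF2BP1, 12.1% for IGF2BP3 and 23.5% for IGF1, while 0.276% of 725 held 3 or more for IGF1R. The UTRs of IGF2, IGFBP2, IGFBP3, IGFBP5 and IGFBP7 held no match, and that of IGFBP4 was not searched. Those of the 4 searched IGFBPs were annotated at 118 to 360 bases, and 0.475 to 2.51% of UTRs of similar length held a match. The lack of a match in such short UTRs therefore says little. For UTRs of a length similar to that of IGF2 the share was 16%. A match is a run of letters and not a tested site.

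The genes listed with the IGF2BPs, which include LIN28A, LIN28B and known let-7 targets, mostly fell where they were called over the days. In PA cells 3, 7 and 4 of the 12 fell at the steps to days 16, 28 and 45 and 0, 0 and 1 rose. In IVF cells 3, 8 and 4 fell and 0, 0 and 0 rose. Among all genes 32.4%, 34.5% and 19.2% were called at these steps in PA cells and 34.2%, 21.7% and 16.7% in IVF cells, in either direction. LIN28A fell at day 16 versus day 0 in PA cells (-5.33 ± 0.27, adjusted p = 1.24e-09) and IVF cells (-5.47 ± 0.28, adjusted p = 9.37e-10). TRIM71, a ubiquitin ligase of early embryos, fell in the same interval (-3.41 in PA and -3.51 in IVF cells). HMGA1, a chromatin protein, fell to 91.5 CPM at day 28 in PA cells, against 481 CPM at day 16, and to 47.6 CPM in IVF cells, against 357 CPM.

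Between the lines, LIN28B and the transcription factor MYCN rose in PA versus IVF cells at day 28 (1.24 ± 0.33, adjusted p = 0.00758, and 1.32 ± 0.13, adjusted p = 5.88e-06), and MYC rose at day 45 (1.76 ± 0.36, adjusted p = 0.00185). No other gene of the list was called between the lines on any day, and IGF2BP2, the third member of the IGF2BP family, was among those not called. The median of the 12 was 0.01, 0.12, 0.39 and 0.20 at days 0, 16, 28 and 45. Cell cycle markers were lower on the later day too. Their summed level was 213 to 461 CPM at day 45 and 3120.1 to 3121 CPM at day 0 in PA cells, and 132 to 133 CPM at day 45 and 3216 to 3281 CPM at day 0 in IVF cells. Their part in the fall of these genes was not tested.

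**Figure D5:**
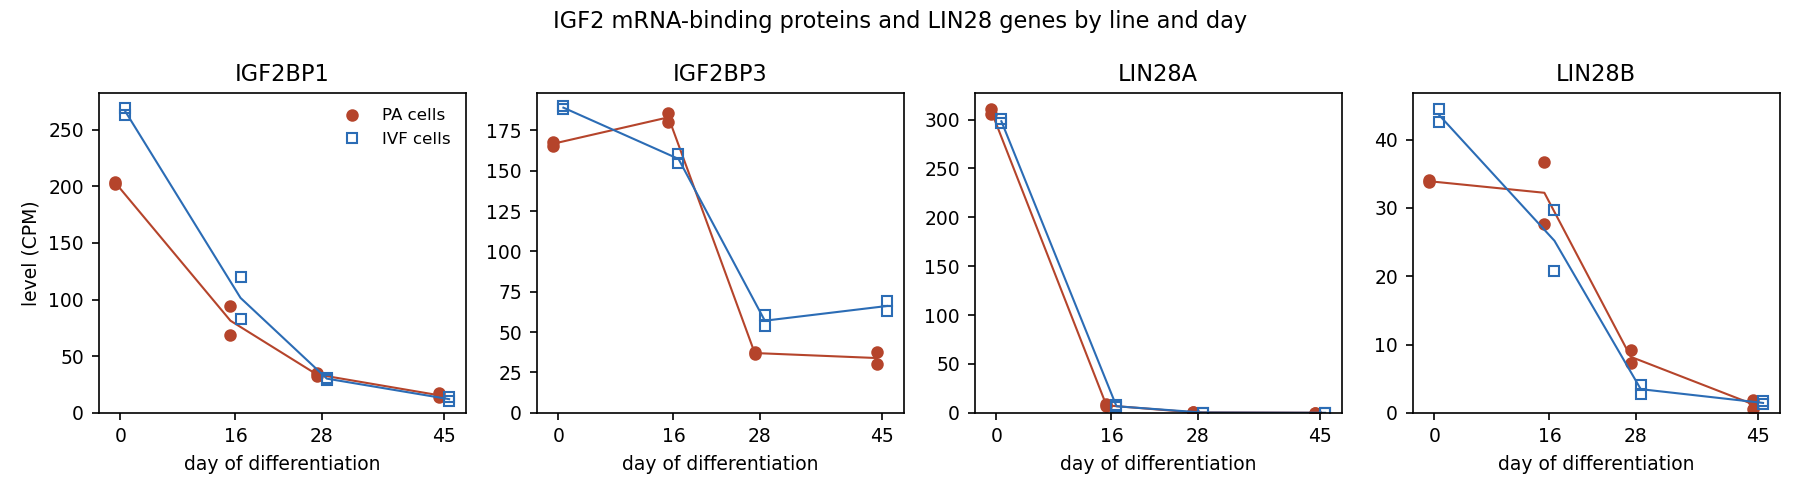
Levels in CPM (y axis, linear) of IGF2BP1, IGF2BP3, LIN28A and LIN28B by day of differentiation (x axis), with filled circles for PA libraries, open squares for IVF libraries and lines through group means. IGF2BP1 falls at every step, IGF2BP3 stays near its day 0 level to day 16 and is lower in PA than IVF cells at days 28 and 45, and LIN28A is near 0 from day 28 on.

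Across steps, 3, 7 and 3 of the 10 members were called in PA cells at the steps to days 16, 28 and 45, and 6, 6 and 3 in IVF cells, beside the shares of all genes given above. In PA cells 18%, 18.3% and 11% of all genes rose and 14.4%, 16.2% and 8.25% fell at these steps, and in IVF cells 20.2%, 10.1% and 10.1% rose and 14%, 11.6% and 6.61% fell. The step itself differed between the lines for 1 member at day 16 versus day 0, 1 at day 28 versus day 16 and 3 at day 45 versus day 28, against 6.84%, 15.2% and 15.8% of all genes. Among all genes the PA step was the higher for 2.28%, 9.84% and 7.87% and the lower for 4.56%, 5.35% and 7.91%. The members were IGFBP5 (lower) at the first step, IGF1 (higher) at the second, and IGFBP3 (higher), IGF1 and IGFBP4 (both lower) at the last. In PA cells the members called at day 28 versus day 16 were IGF2, IGFBP2, IGF2BP1 and IGF2BP3, which fell, and IGFBP3, IGFBP4 and IGFBP5, which rose. In IVF cells they were IGF2, IGF1, IGF2BP1 and IGF2BP3, which fell, and IGFBP3 and IGFBP5, which rose.

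Genes that carry the IGF signal inside the cell were called between the lines in at most 3 of 31 cases on any day. Of 33 listed, 31 were tested, and 0, 1, 1 and 1 rose and 1, 0, 2 and 2 fell in PA versus IVF cells at days 0, 16, 28 and 45. These calls were 3.23%, 3.23%, 9.68% and 9.68% of the list, against 6.61%, 9.08%, 17.1% and 13.9% of all genes. The medians were 0.06, -0.01, 0.22 and -0.07. IRS4, a docking protein that links IGF1R to PI3 kinase, fell in PA versus IVF cells at day 0 (-1.04) and rose at day 16 (1.07) and day 28 (3.14). It averaged 45.1 CPM in PA cells and 5.13 CPM in IVF cells at day 28. The lipid phosphatase INPPL1 fell in PA cells at day 28 (-1.28) and day 45 (-1.08), as did the transcription factors FOXO3 at day 28 (-1.01) and FOXO4 at day 45 (-1.31). PIK3R3 and AKT1 were not analysed here.

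At the first step over the days, PIK3R1, the regulatory subunit of PI3 kinase, rose by day 16 in PA cells (3.19 ± 0.14, adjusted p = 2.66e-10) and IVF cells (3.54 ± 0.14, adjusted p = 1.12e-10). FOXO1, a transcription factor that the AKT kinases keep out of the nucleus, fell at the same step and averaged 8.92 CPM at day 16 and 71.4 CPM at day 0 in PA cells, and 8.18 CPM at day 16 and 68.8 CPM at day 0 in IVF cells. Of the 31 genes, 4 rose and 6 fell in PA cells at this step, and 3 rose and 6 fell in IVF cells. These were 32.3% and 29% of the list, near the 32.4% and 34.2% of all genes called in PA and IVF cells.

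Genes that FOXO factors activate when IGF signalling is low made up a list of 12, all tested. At day 16 versus day 0, 8 of 12 rose in PA cells and 6 of 12 in IVF cells, with medians of 1.39 and 1.03, and none fell, while among all genes 18% rose in PA cells and 20.2% in IVF cells. At day 28 versus day 16, 0 rose and 3 fell in PA cells and 1 rose and 2 fell in IVF cells, with medians of -0.07 and 0.13. Of all genes, 18.3% rose and 16.2% fell in PA cells at this step, and 10.1% rose and 11.6% fell in IVF cells. At day 45 versus day 28, 3 rose in PA cells and 4 in IVF cells, with medians of 0.32 and 0.47, and none fell. Of all genes, 11% rose and 8.25% fell in PA cells at that step, and 10.1% rose and 6.61% fell in IVF cells. At the first step PDK4, which turns off pyruvate oxidation, rose in PA cells (4.36 ± 0.35, adjusted p = 9.65e-08), and TXNIP, an inhibitor of glucose uptake, rose in PA cells (1.64 ± 0.14, adjusted p = 1.55e-07) and IVF cells (1.61 ± 0.14, adjusted p = 1.75e-07). CDKN1B and CCNG2, which slow the cell cycle, rose at day 16 versus day 0 in both lines (1.17 and 1.44 in PA, 1.23 and 1.30 in IVF cells). Between the lines, PDK4 fell in PA cells at day 0 (-2.09) and rose at day 16 (1.43), GADD45A rose at day 0 (1.15), TXNIP fell at day 28 (-1.27), and BCL6 fell at day 28 (-1.28) and day 45 (-1.79). The list's median between the lines was -0.12, 0.10, -0.22 and -0.41 on these days.

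By level, the 10 members spanned a wide range. In PA cells at day 45 the group means were 976 ± 164 TPM for IGFBP2, 99.3 ± 17.1 TPM for IGFBP5 and 301 ± 108 TPM for IGFBP4, beside 1.25 ± 0.113 TPM for IGF2 and 2.54 ± 0.943 TPM for IGF1 (SD, n = 2). In IVF cells at day 45 they were 1404 ± 109 TPM for IGFBP2, 201 ± 87.7 TPM for IGFBP5, 172 ± 27.0 TPM for IGFBP4, 2.51 ± 0.317 TPM for IGF2 and 0.771 ± 0.0519 TPM for IGF1. In both lines both ligands were below these 3 binding proteins at day 45. The order of the 8 groups by CPM and by TPM correlated at 0.905 to 1 (Spearman) for each member, and the highest group differed for IGF2 and IGFBP2.

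By CPM, IGF2 was highest in PA cells at day 16, followed by IVF cells at day 16, PA cells at day 0, IVF cells at day 0 and IVF cells at day 45, with no overlap between neighbours in that order. The last 3 groups, PA cells at days 28 and 45 and IVF cells at day 28, overlapped. IGF1 was highest in IVF cells at day 16, followed by PA cells at day 16. For IGF2BP1 both lines stood in the order of the days, day 0 highest and day 45 lowest.

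The genes whose levels followed each member most closely were sought among 11580 genes with a mean of at least 5 CPM, by Pearson r of log2(CPM + 1) over the 16 libraries. The libraries share line and day, so that these are descriptions. IGF2 was followed most closely by MCUR1 (0.972), PRPS1 (0.972) and MRPL30 (0.968), with r in brackets, and IGF1 by PMCH (0.954), CPNE8 (0.944) and GUCY1B3 (0.941). For IGF1R they were GPC6 (0.940), MAPK1IP1L (0.939) and DUSP6 (0.938), and for IGFBP2 they were MLF1 (0.948), RBX1 (0.930) and PGAP2 (0.925). IGFBP3 was followed by NFIX (0.985), DGKZ (0.971) and FCGRT (0.967), and IGFBP4 by AGT (0.963), HEPACAM (0.958) and NPTX2 (0.954). AGT and HEPACAM are known as astrocyte genes, and AGT was among the astrocyte markers above. IGFBP5 was followed by ATP6AP1 (0.986), MICAL3 (0.976) and MTCH1 (0.975), and IGFBP7 by ADAM15 (0.965), STK33 (0.953) and CFI (0.952). IGF2BP1 was followed by SET (0.985), XPO5 (0.985) and DSG2 (0.985), and IGF2BP3 by EIF2A (0.986), RPL5 (0.986) and PTCD2 (0.985). With TPM in place of CPM, 1 or 2 of the 3 genes stayed the same for each member.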

How the data were processed

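Gene expression was measured by bulk RNA-seq of TruSeq Stranded mRNA libraries. Per the labels and the study's methods, the authors trimmed reads with Trimmomatic 0.38, aligned them to Sscrofa11.1 with HISAT2 2.1.0, handled alignments with SAMtools 1.9 and assembled and quantified genes with StringTie 2.1.3b. Their deposited table gives raw read counts per gene, used here for tests, and deposited TPM, used to compare genes. FPKM values deposited beside them were not used.

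Counts were fitted over all 16 libraries and 8 groups with edgeR 4.0.16 (quasi-likelihood, TMM, filterByExpr, 8 residual degrees of freedom), with Benjamini-Hochberg adjustment over 18528 genes. Intervals are 95%. The members and lists were chosen with earlier results of these data known. Genes named were all 10 members, up to 4 called genes per list and comparison with the smallest adjusted p, all IGF2 neighbours and the 3 most similar genes per member. Scripts were tested on simulated data. DESeq2 1.42.0, other scalings, filters, a replicate block and leaving out each library were tried. ZBED6, H19, SNRPN, PIK3R3 and AKT1 were not analysed here. Replicates differed by more than sampling noise. Some listed genes enter the list counts but are not reported here by name.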

Additional observations from a re-analysis of the deposited data

Results flagged for a closer look

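5 steps between days differed between the lines in the test of the difference itself, the PA step minus the IVF step in log2 units. IGFBP5 at day 16 versus day 0 differed by -1.76 ± 0.52, adjusted p = 0.0451, being 0.08 ± 0.35 in PA cells and 1.84 ± 0.38 in IVF cells. IGF1 at day 28 versus day 16 differed by 4.20 ± 0.47, adjusted p = 5.14e-05, being -0.70 ± 0.30 in PA cells and -4.90 ± 0.37 in IVF cells. IGF1 at day 45 versus day 28 differed by -1.57 ± 0.48, adjusted p = 0.0271, being 0.17 ± 0.30 in PA cells and 1.74 ± 0.37 in IVF cells. IGFBP3 at day 45 versus day 28 differed by 1.94 ± 0.45, adjusted p = 0.00529, being 2.83 ± 0.34 in PA cells and 0.89 ± 0.32 in IVF cells. IGFBP4 at day 45 versus day 28 differed by -1.24 ± 0.44, adjusted p = 0.045, being 3.61 ± 0.32 in PA cells and 4.85 ± 0.35 in IVF cells. Groups of 2 libraries are too small for a check of single outlying samples.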

How the results depend on the processing

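Over 136 values of single members, 3390 alternative fits gave 3225 with the same direction and side of the threshold, 61 that newly passed it, 47 that no longer did and 57 of opposite sign, none of the last among called values. The replicate numbers did not pair the libraries (correlations of deviations between groups of -0.19 to 0.28, 5 of 28 over 0.1). With the replicate block the members called for the step difference at day 28 versus day 16 went to 2 in place of 1, and the other counts of members stayed within 1.5 times. The number of members called between the lines at day 0 was 0 with RLE size factors, and at day 16 it was 1 with RLE size factors, total counts, DESeq2 or only the libraries compared. The step difference at day 28 versus day 16 gave 2 members with no filter on low counts, DESeq2 or only the libraries compared, and that at day 45 versus day 28 gave 1 with only the libraries compared. The study's criterion gave 1 for the mean of days 16, 28 and 45. That criterion keeps genes with counts in every library and so leaves out IGF1. With no fold minimum the counts were 1 at day 16, 6 at day 45, 6 for the mean of days 16, 28 and 45, 5 at day 16 versus day 0 in PA cells, 5 at day 45 versus day 28 in each line and 3 for the step difference at day 28 versus day 16.

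Leaving out 1 library at a time gave 0 to 1 members called at day 0, 0 to 1 at day 16, 2 to 4 at day 28, 3 to 4 at day 45 and 1 to 3 for the mean of days 16, 28 and 45. It gave 2 to 4 at day 45 versus day 28 in PA cells and 3 to 4 in IVF cells, and 0 to 1, 1 to 3 and 2 to 4 for the 3 step differences in order of day. The other counts of members were unchanged by it.

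The values that changed sign were not called. IGFBP5 at day 45 versus day 28 in IVF cells was 0.012 with upper quartile scaling and 0.019 with the replicate block, IGFBP4 at day 28 versus day 16 in IVF cells was 0.0094 with total counts, and the IGFBP5 step difference at day 45 versus day 28 was 0.069 with total counts. The IGF1R step difference at day 16 versus day 0 was -0.017 with upper quartile scaling, -0.022 with total counts, -0.021 with only the libraries compared, -0.015 with no filter and -0.00061 with the study's criterion, and at day 45 versus day 28 it was 0.099 with total counts.
Leaving out 1 library at a time changed the sign of 24 values. For PA versus IVF cells at day 16 the range was -0.25 to 0.022 for IGFBP2. For PA versus IVF cells at day 28 the range was -0.10 to 0.21 for IGF2. For PA versus IVF cells at day 45 the range was -0.39 to 0.079 for IGF1R and -0.76 to 0.072 for IGFBP7. For PA versus IVF cells over days 16, 28 and 45 the range was -0.014 to 0.17 for IGF2BP1. For day 16 versus day 0 in PA cells the range was -0.36 to 0.077 for IGFBP4 and -0.61 to 0.55 for IGFBP5. For day 45 versus day 28 in PA cells the range was -0.21 to 0.11 for IGF2, -0.44 to 0.60 for IGF1, -0.37 to 0.18 for IGFBP5 and -0.30 to 0.027 for IGF2BP3. For day 28 versus day 16 in IVF cells the range was -0.64 to 0.37 for IGFBP4. For day 45 versus day 28 in IVF cells the range was -0.47 to 0.31 for IGFBP5. For the step difference at day 16 versus day 0 the range was -0.083 to 0.090 for IGF1R, -0.12 to 0.33 for IGFBP4, -0.29 to 0.033 for IGFBP7 and -0.18 to 0.36 for IGF2BP1. For the step difference at day 28 versus day 16 the range was -0.30 to 0.0049 for IGF2, -1.03 to 0.13 for IGFBP5 and -0.22 to 0.38 for IGFBP7. For the step difference at day 45 versus day 28 the range was -0.24 to 0.22 for IGF1R, -0.37 to 0.38 for IGFBP5, -0.39 to 0.44 for IGFBP7 and -0.024 to 0.42 for IGF2BP1.

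All-gene counts at day 0, 16, 28 and 45 and for the mean of the later days were 3084, 3785, 7419, 7220 and 7329 with no fold minimum, against 1224, 1683, 3165, 2584 and 1574, and the study's criterion gave 814 for that mean. Without the fold minimum the steps to days 16, 28 and 45 gave 11049, 11206 and 8161 genes in PA cells (6005, 6389 and 3562 with it), 11348, 8702 and 7774 in IVF cells (6335, 4019 and 3089), and 1972, 5300 and 5738 for the step differences (1267, 2815 and 2923). Total counts moved the all-gene median (log2) to 0.12 at day 16 versus day 0 in IVF cells (0.0037 with TMM) and to 0.15 for the step difference at day 45 versus day 28 (0.03 with TMM), where the share of higher calls was 60.2% (49.9% with TMM). With 2 libraries a group and low counts, differences in IGFBP3 at day 16 and in IGF1 at day 28 rest on few reads. The cause of the changes listed was not tested.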
